A study of Mus musculus with 4 samples.

Results

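The products of 10 genes are released into nasal mucus or protect it, and the genes were followed across postnatal ages of the mouse olfactory epithelium: the odorant-binding lipocalins Obp1a, Obp2a and Lcn11, the secretoglobin Scgb1c1, the BPI-fold proteins Bpifa1, Bpifb1 and Bpifb9b, the lectin Reg3g, the mucin Muc5b and the glutathione peroxidase Gpx6. They were taken by name, 10 of the 49671 gene symbols in the tables, and all 10 were found there. Mice of the outbred CD-1 strain gave 1 library of single olfactory-epithelium cells on each of postnatal days 0 (P0), 3 (P3), 7 (P7) and 21 (P21), with no genotype or treatment named. Cells were freed with papain and passed to 10x Chromium 3' version 2 chemistry as sorted samples, and neither the gate of the sort nor the number of mice behind a library is given in the sources used here. The libraries held 2691, 3220, 1785 and 1413 cells after filtering and 9192869, 17770838, 8650272 and 6844712 unique molecular identifiers (UMIs, each standing for 1 captured transcript). Levels are given as UMIs per 1000000 UMIs of the cells named (CPM), with exact Poisson 95% intervals. With 1 library an age, intervals cover counting error only, and age cannot be told apart from library.

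The olfactory epithelium is covered by a mucus layer through which odorants must pass to reach the cilia of the olfactory sensory neurons (OSNs). Its proteins come from Bowman's glands beneath the epithelium, from sustentacular (supporting) cells, from other nasal glands and, at the border, from the secretory cells of respiratory epithelium. Lipocalins of the odorant-binding family carry small hydrophobic molecules, gel-forming mucins build the mucus itself, and BPI-fold proteins and Reg3 lectins act against bacteria. The UMIs counted in neurons are given beside each level and are called the background here; whether they came from free RNA was not tested.

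Positions are those of the GENCODE annotation of mm10. Obp2a (chr2:25700043-25703326, plus strand) and Lcn11 (chr2:25777017-25780279, plus strand) are near neighbours, 73.7 kb apart with 3 protein-coding genes between them. Bpifa1 (chr2:154142880-154149219), Bpifb1 (chr2:154190818-154220369) and Bpifb9b (chr2:154307227-154320646) sit in the BPI-fold cluster further along the same chromosome, all on the plus strand. Scgb1c1 (chr7:140845547-140846769, plus strand) and Muc5b (chr7:141839070-141873084, plus strand) are on chromosome 7, Reg3g (chr6:78466269-78468872, minus strand) is on chromosome 6, Gpx6 (chr13:21312125-21319624, plus strand) is on chromosome 13 and Obp1a (chrX:78085505-78091374, minus strand) is on the X chromosome. Scgb1c1 is overlapped by C330022C24Rik on the other strand, which had 0 UMIs in every library, and by Gm45785 on that strand, which was not analysed here.

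The stretches just before the start sites of 5 members are shown because these genes carry the results that follow: Obp2a and Lcn11 as neighbours with opposite ages, Bpifa1 and Reg3g as the pair that shared 10 of their high cells, and Scgb1c1 as the most abundant member. RefSeq promoter entries (GRCm38.p6) existed for 9 members, all but Muc5b. A window ends at the GENCODE start where the RefSeq start lay inside the gene. The windows printed are Obp2a chr2:25699824-25700042 (plus strand), Lcn11 chr2:25776767-25777016 (plus strand), Bpifa1 chr2:154142630-154142879 (plus strand), Reg3g chr6:78468875-78469124 (minus strand) and Scgb1c1 chr7:140845315-140845546 (plus strand), each read 5′ to 3′ along its gene. Capitals mark TATAAA on either strand.
Obp2a: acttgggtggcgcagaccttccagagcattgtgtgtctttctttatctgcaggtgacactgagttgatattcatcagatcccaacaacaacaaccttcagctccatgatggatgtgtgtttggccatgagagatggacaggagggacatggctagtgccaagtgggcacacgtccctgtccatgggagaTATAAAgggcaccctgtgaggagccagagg
Lcn11: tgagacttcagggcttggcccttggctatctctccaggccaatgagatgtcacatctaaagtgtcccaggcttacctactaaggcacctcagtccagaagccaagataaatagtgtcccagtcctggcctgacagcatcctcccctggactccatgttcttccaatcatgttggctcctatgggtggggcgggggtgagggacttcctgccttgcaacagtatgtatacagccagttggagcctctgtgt
Bpifa1: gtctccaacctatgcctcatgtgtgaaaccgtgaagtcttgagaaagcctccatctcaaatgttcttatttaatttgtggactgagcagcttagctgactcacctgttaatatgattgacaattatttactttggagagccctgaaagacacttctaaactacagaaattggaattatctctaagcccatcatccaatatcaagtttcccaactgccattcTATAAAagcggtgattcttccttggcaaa
Reg3g: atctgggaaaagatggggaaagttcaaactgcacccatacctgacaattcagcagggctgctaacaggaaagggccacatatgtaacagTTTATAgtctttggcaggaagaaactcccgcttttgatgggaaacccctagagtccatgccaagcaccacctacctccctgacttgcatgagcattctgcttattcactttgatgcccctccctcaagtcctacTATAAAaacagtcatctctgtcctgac
Scgb1c1: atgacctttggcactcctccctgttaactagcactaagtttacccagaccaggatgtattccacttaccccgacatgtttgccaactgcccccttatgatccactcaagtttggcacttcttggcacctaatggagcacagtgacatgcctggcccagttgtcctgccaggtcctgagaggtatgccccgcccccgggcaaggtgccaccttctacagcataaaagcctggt
TATAAA, the core of the TATA box, was present on either strand of the 250 bases before the RefSeq start in 5 of the 9 members (Obp1a, Obp2a, Bpifa1, Bpifb9b and Reg3g), against 12.4% of 32851 promoters. It lay 30 bases before the GENCODE start of Obp2a, 29 before that of Bpifa1 and 27 before the RefSeq start of Reg3g, while the Lcn11 and Scgb1c1 windows held none. A forkhead motif (TGTTTAC) and a Sox motif (AACAAT), found in 3.17% and 9.42% of promoters, were in none of the 9. A match or its absence is a description of these letters only.

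Cells were clustered without the 10 members or the related family genes, and clusters were named from marker genes. The supporting, gland and respiratory secretory marker sets shared a single class name, the secretory cluster. The cluster given that name scored best on the supporting-cell set (4.93). It held 50 cells in the P0 library, 13 in P3, 62 in P7 and 14 in P21. The shared name is kept because markers of those 3 kinds of cell were mixed in this cluster. Horizontal-basal-like cells, clusters 12 and 16, were named from keratins and other markers of the reserve stem cells of the epithelium. They numbered 117, 261, 98 and 84, and whether all of them are such stem cells was not tested. Mature-OSN-like cells numbered 362, 346, 367 and 845. Between 1 and 68 cell barcodes were shared by any pair of libraries, most of them by P0 and P3. Doublets were scored but not removed.

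The secretory cluster exceeded mature-OSN-like cells by at least 2-fold, with an interval above 1, for 4 of 4 measured members in the P0 library, 3 of 3 in P3, 3 of 3 in P7 and 3 of 4 in P21, where measured means at least 20 UMIs in either class. Among all measured genes 13.3%, 6.90%, 15.5% and 8.95% passed the same rule. Reg3g at every age, Bpifa1 at P3 and P7 and Bpifb1 at P0 reached the 20 UMIs only in the secretory cluster. In mature-OSN-like cells Reg3g had 15, 2, 9 and 15 UMIs by age and Bpifb1 had 2 at P0. Calls that met the minimum only where the member was high were nearly fixed in advance. The shares of all genes, which include genes measured through the neurons, are no like baseline for them. Scgb1c1, Bpifa1 and Reg3g passed at every age, Bpifb1 passed at P0, and Obp2a at P21 was the measured member that did not. The mean log2 difference (10 CPM added) over the 4 libraries was 7.90 ± 1.66 for Scgb1c1, 8.39 ± 0.73 for Bpifa1 and 7.51 ± 2.04 for Reg3g (SD, n = 4), and an exact two-sided sign-flip permutation test gave p = 0.125 for each, the smallest p that 4 pairs allow, with 4 of 4 libraries higher.

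Scgb1c1, a secretoglobin of the olfactory mucosa, was the most abundant member in sum. It had 2551 UMIs in the P0 library, 4142 in P3, 3895 in P7 and 5818 in P21. In the secretory cluster its level was 2966 CPM (2717 to 3231) in the P0 library, 4999.8 (4374 to 5689) in P3, 6748 (6439 to 7069) in P7 and 37252 (35972 to 38565) in P21. In mature-OSN-like cells it was 38.5, 11.1, 21.1 and 26.5 CPM at the same ages. The ratio of secretory to mature-OSN-like cells was 77.1 (58.4 to 103) in the P0 library, 449 (284 to 749) in P3, 320 (231 to 456) in P7 and 1405 (1148 to 1738) in P21. The P21 level lay above the 3 earlier ones, and the intervals of the 2 classes did not overlap in any library. Without the cell that held most Scgb1c1 the ratio was 176 at P7 and 913 at P21.

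The horizontal-basal-like cells were another large holder of Scgb1c1, at 2552 CPM (2367 to 2748) in the P0 library, 3769 (3648 to 3893) in P3, 5036 (4812 to 5268) in P7 and 7807 (7465 to 8160) in P21. Of the cells with at least 10 Scgb1c1 UMIs, a limit set after the data were seen, 23 of 40 in the P0 library, 85 of 94 in P3, 62 of 87 in P7 and 48 of 62 in P21 were horizontal-basal-like. More of these cells were therefore basal than secretory at every age. The highest single cells, with 916 UMIs at P7 and 1260 at P21, were of the secretory cluster, whereas that of P0, with 937, lay in the microvillar-like cluster and that of P3, with 172, was horizontal-basal-like. Their doublet scores stood at percentiles 77.9, 52.7, 99.2 and 95.9 of the P0, P3, P7 and P21 libraries. The P7 cell, of 31601 UMIs, was the deepest of its library, and the part of doublets was not tested. The microvillar-like cells stood at 4590 CPM (4304 to 4890) in the P0 library, 116 (82.8 to 158) in P3, 203 (137 to 290.1) in P7 and 2661 (2431 to 2907) in P21. Single cells held 937, 23, 27 and 371 of their 958, 40, 30 and 492 Scgb1c1 UMIs.

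**Figure D1:**
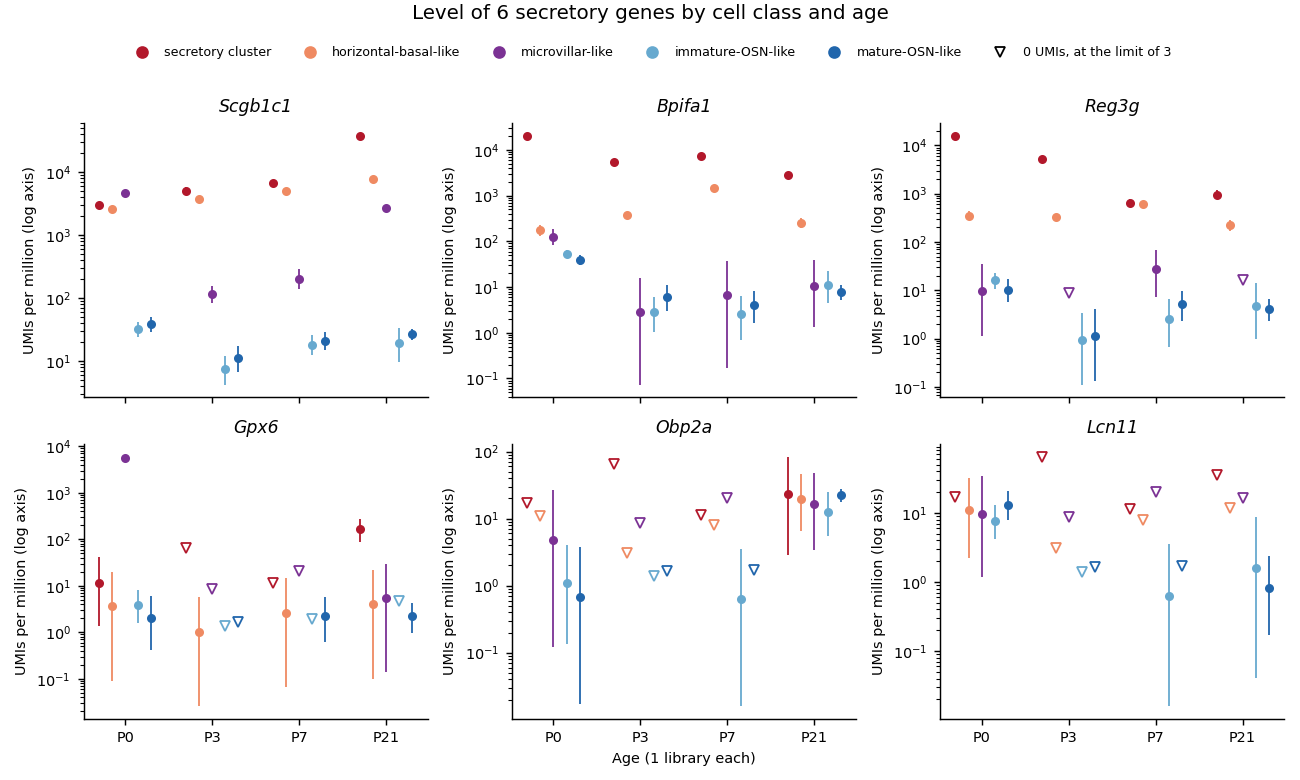
Level of 6 members (CPM, log axis) in 5 cell classes at each age, 1 library an age. Points are levels, bars exact Poisson 95% intervals, and open triangles mark 0 UMIs at the limit that 3 counts would give. Scgb1c1, Bpifa1 and Reg3g stand far higher in the secretory cluster than in the OSN-like classes at all 4 ages. For Obp2a at P21 and Lcn11 at P0 the intervals of the classes with UMIs overlap, at low counts.

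The basal cells were of 2 kinds with different members. Both clusters carried the basal keratins, Krt14 at 2509 CPM in cluster 16 and 2393 in cluster 12, and Krt5 at 1027 and 802 CPM. Cluster 16 (290 cells) held little Cyp2f2 (40.1 CPM) and little Krt15 (345 CPM), whereas cluster 12 (270 cells) held 1373 CPM of Cyp2f2, an enzyme known from respiratory secretory cells, and 5536 CPM of Krt15. Cluster 16 contained Scgb1c1 at 10140, 8365, 6723 and 9983 CPM at P0, P3, P7 and P21. Cluster 12 contained it at 405, 666, 975 and 2796 CPM. Clusters 16 and 12 were compared after the data were seen.

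Scgb1c1 was higher in cluster 16 than in cluster 12 in all 4 libraries, by 25.1-fold (19.99 to 31.7) in the P0 library, 12.6-fold (11.3 to 14.0) in P3, 6.89-fold (5.68 to 8.45) in P7 and 3.57-fold (3.09 to 4.13) in P21. Of all measured genes 4.31%, 8.31%, 10.6% and 11.6% were at least 2-fold higher in cluster 16. Bpifa1 and Reg3g went the other way in all 4 libraries. Bpifa1 had 1, 3, 2 and 2 UMIs in cluster 16 at P0, P3, P7 and P21, against 47, 372, 565 and 63 in cluster 12. Reg3g had 4, 4, 5 and 0 UMIs in cluster 16, against 93, 323, 225 and 56 in cluster 12. Of all measured genes 6.32%, 7.10%, 3.42% and 4.70% were at least 2-fold lower in cluster 16. The exact sign-flip permutation p over 4 libraries was 0.125 for each of the 3 genes, again the smallest possible.

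Reg3g was spread over many cells of cluster 12, with at least 1 UMI in 41 of 86 cells in the P0 library, 73 of 146 in P3, 17 of 19 in P7 and 11 of 19 in P21. In cluster 16 the cells with a Reg3g UMI were 4 of 31, 3 of 115, 2 of 79 and 0 of 65, and 0 of 65 allows a share of up to 5.52% of cells with a UMI (exact binomial), which is no limit on cells that express the gene. Bpifa1 was carried by fewer cells of cluster 12, namely 16, 10, 4 and 6.

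Of the 3 members measured between P21 and P0 in the horizontal-basal-like class, Scgb1c1 was called higher and none lower, where 8.14% of 2604 genes were higher and 10.2% lower. Scgb1c1 stood at 7807 CPM at P21, against 2552 CPM at P0, 3.06-fold higher (2.81 to 3.34). Cluster 16 made up 65 of the 84 cells of the class at P21, against 31 of 117 at P0. Its own level was 9983 CPM at P21 (9520 to 10461), against 10140 CPM at P0 (9355 to 10972), and these intervals overlap. Cluster 12 stood at 2796 CPM at P21 (2433 to 3198), on 213 UMIs in 8 of 19 cells, against 405 CPM at P0 (324 to 499). The higher level of the class thus stood beside a different share of the 2 clusters and a higher level in cluster 12. The part of each was not tested.

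The secretory cluster also divided between the members. Of its 139 cells, 126 had at least 3 UMIs of Cyp2g1 and Cyp2a5, olfactory supporting-cell and gland enzymes, and 13 had fewer, a division made after the data were seen. Scgb1c1 had 5718 UMIs in the 126 cells, 11162 CPM (10875 to 11456), and 18 UMIs in the 13 cells, 300.2 CPM (178 to 474). Reg3g had 423 UMIs in the 126 cells, 826 CPM (749 to 908), and 2838 in the 13 cells, 47324 CPM (45599 to 49098). Bpifa1 had 1547 UMIs in the 126 cells, in 9 cells of which 2 had at least 10, and 4545 UMIs in the 13 cells, 75789 CPM (73602 to 78025). The 13 cells numbered 6, 5, 1 and 1 by age. Single cells of P0, P7 and P21 held 1837, 1967 and 249 of the 4545, so the summed level is that of a few cells. The 13 cells carried Lypd2 in all 13 and Olfm5 in 7, at 3585 and 5036 CPM, and 0 UMIs of Ermn and of Krt5. Lypd2 and Olfm5 stood at 1232 and 13.7 CPM in the 126 cells, of which 108 had Lypd2. Other respiratory secretory markers did not all go with Lypd2. Tff2 was also higher in the 13 cells, at 600 against 83.9 CPM. Sec14l3 was lower, at 400 CPM in 5 of the 13 cells against 2079 CPM in 114 of the 126. Scgb1a1 had 0 UMIs in both groups.

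**Figure D2:**
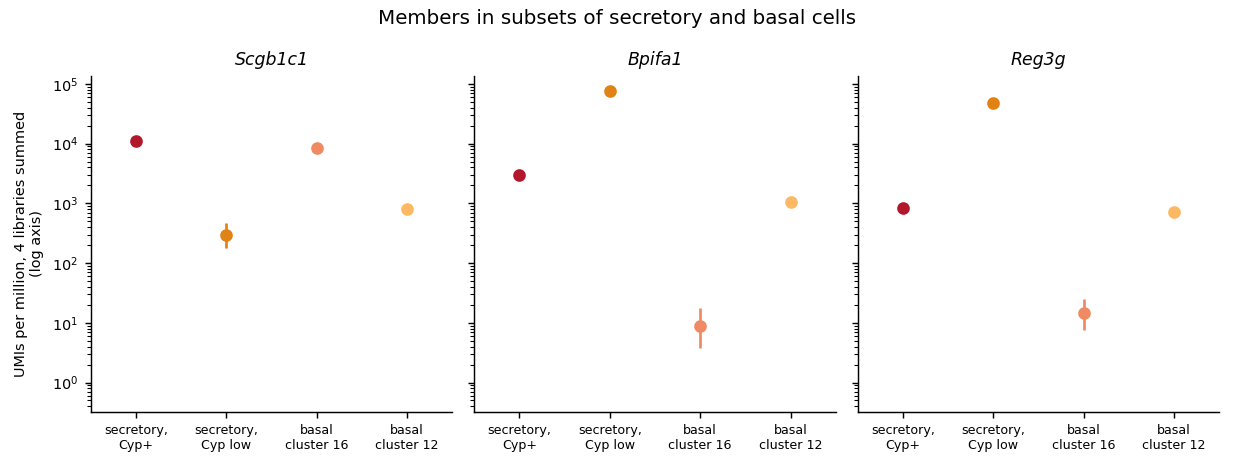
Level of Scgb1c1, Bpifa1 and Reg3g (CPM, log axis, 4 libraries summed) in secretory-cluster cells with at least 3 and with fewer Cyp2g1 and Cyp2a5 UMIs, and in the 2 basal clusters. Points are levels and bars exact Poisson 95% intervals. Scgb1c1 is high in the first of these and in basal cluster 16, Bpifa1 and Reg3g in cells with fewer Cyp2g1 and Cyp2a5 UMIs. The latter are 13 cells, and 2 of them, with 1837 and 1967 UMIs, held most of the Bpifa1.

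Bpifa1, an antibacterial and surface-active protein of nasal secretions, came mostly from a few cells. It had 4094 UMIs in the P0 library, 1508 in P3, 2594 in P7 and 369 in P21. The single highest cell held 1837 of them in the P0 library, 827 in P3, 1967 in P7 and 249 in P21, which is 44.9%, 54.8%, 75.8% and 67.5%. Cells with at least 10 Bpifa1 UMIs numbered 10, 6, 5 and 3, and all other cells together held 412, 77, 49 and 63 UMIs. They were 9 cells of the secretory cluster, 9 horizontal-basal-like, 2 immature-OSN-like, 2 stromal-like, 1 microvillar-like and 1 ensheathing-glia-like.

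The highest Bpifa1 cells resembled each other across ages. The P0 cell, of 12175 UMIs, also held 1194 Reg3g, 117 Pglyrp1, 84 Lypd2, 50 Olfm5, 21 Tff2 and 17 Bpifb1 UMIs. The P7 cell held 170 Reg3g, 117 Olfm5, 34 Lypd2, 11 Pglyrp1 and 10 Tff2 UMIs. The P21 cell held 80 Reg3g, 107 Scgb3a1, 63 Olfm5, 21 Pglyrp1, 14 Lypd2 and 11 Bpifb1 UMIs. All 3 were of the secretory cluster, and each combined the bactericidal protein Pglyrp1 with Lypd2, which most other cells of that cluster also carried. The P3 cell lay in a stromal-like cluster, with 30 Reg3g, 13 Lypd2, 12 Pglyrp1 and 9 Olfm5 UMIs beside the matrix genes Mfap4 (14 UMIs) and Bgn (12 UMIs), and its doublet score was at the 98.9th percentile of its library. The scores of the P0, P7 and P21 cells stood at percentiles 97.3, 99.0 and 85.7 of their libraries, and the part of doublets in these profiles was not tested.

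Against mature-OSN-like cells, Bpifa1 in the secretory cluster was 515-fold higher (397 to 679) in the P0 library, 905-fold (497 to 1835) in P3, 1869-fold (905 to 4655) in P7 and 380-fold (257 to 584) in P21. Its levels there were 20510, 5543, 7465 and 2908 CPM, against 39.9, 6.13, 3.99 and 7.65 CPM in mature-OSN-like cells. These ratios rested on single cells at the later ages. Without the highest cell of each library the ratios of the 4 ages in turn were 272, 905, 2.96 and 1.56, and the values of P7 and P21 did not pass. At P3 the highest cell was stromal-like, so no secretory-cluster cell was left out and the ratio could not change. There 2 cells held 254 of the 255 Bpifa1 UMIs of the secretory cluster. When the members and family genes were allowed into the clustering, 18 of the 24 cells with at least 10 Bpifa1 UMIs joined a horizontal-basal-like cluster, and the ratios of Bpifa1 in the remaining secretory cluster were 0.490, 0, 3.27 and 3.39, of which none passed.

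Reg3g, a secreted lectin that kills Gram-positive bacteria, had 2993 UMIs in the P0 library, 627 in P3, 446 in P7 and 157 in P21. Cells with at least 10 UMIs numbered 7, 18, 10 and 2. At P0 all 7 were of the secretory cluster, while at P3 13 of 18 and at P7 8 of 10 were horizontal-basal-like. The secretory cluster held it at 15662, 5304, 656 and 954 CPM, against 10.3, 1.11, 5.14 and 4.10 CPM in mature-OSN-like cells. The ratios were 1519 (920 to 2718) in the P0 library, 4762 (1304 to 39541) in P3, 128 (65.7 to 284) in P7 and 233 (133 to 435) in P21. Without the highest cell they were 926.5, 2106, 2.30 and 5.83, and the values of P7 and P21 did not pass. With members and family genes in the clustering, 35 of the 37 cells with at least 10 Reg3g UMIs joined the same horizontal-basal-like cluster, and the ratios were 0.981, 0, 2.54 and 13.1, of which none passed. Of the cells with at least 10 UMIs, 10 of the 24 for Bpifa1 and 10 of the 37 for Reg3g were the same cells.

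Bpifb1, another BPI-fold protein of airway mucus, was scarce, with 29, 5, 2 and 13 UMIs by age (P0 to P21). One cell held 17 of the 29 at P0 and another 11 of the 13 at P21, and both were also the highest Bpifa1 and Reg3g cells of their library. Muc5b, a gel-forming mucin of airways and glands, had 12, 1, 3 and 17 UMIs and at most 5 in any cell. At P21 5 of its 17 UMIs were in the secretory cluster and 3 in mature-OSN-like cells, and at P0 the counts were 5 and 1. The microvillar-like cells held 7 of the 17 at P21, the highest cell, with 5, among them. The P0 ratio of Bpifb1 was 94.9 (23.4 to 830), on 23 UMIs in the secretory cluster and 2 in mature-OSN-like cells, and without the cell of 17 the 6 UMIs left fall short of the minimum of 20.

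**Figure D3:**
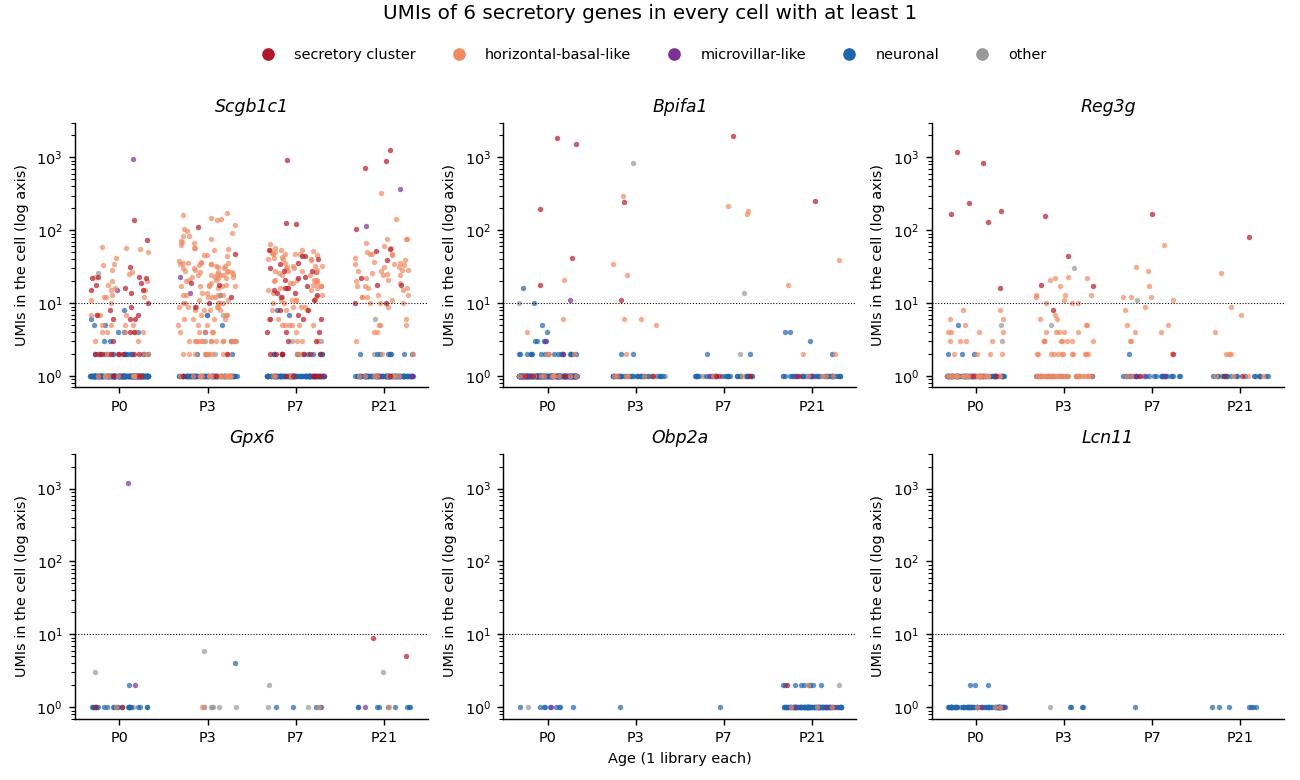
UMIs of 6 members in every cell with at least 1 (log axis), by age, coloured by cell class, with cells spread sideways at random. The dotted line marks 10 UMIs. Scgb1c1, Bpifa1 and Reg3g reach from 1 UMI to over 1000, Gpx6 stands on 1 cell at P0, and no cell exceeds 2 UMIs of Obp2a or Lcn11.

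Most Gpx6 and most Bpifb9b UMIs were in 1 cell each, at P0. Gpx6, an olfactory glutathione peroxidase, had 1219, 18, 10 and 28 UMIs by age (P0 to P21), and 1182 of the 1219 were in a cell of 9735 UMIs. The same cell held 1170 Bpifb6, 937 Scgb1c1, 835 Bpifb4, 323 Vmo1, 77 Ces1d and 74 Ces1a UMIs, so that Gpx6 and Scgb1c1 made 21.8% of it. Bpifb9b had 381, 0, 0 and 1 UMIs, and 340 of the 381 were in another cell, of 7655 UMIs. That cell held 488 Wfdc18, 237 Bpifb5, 38 Odam, 20 Ang4 and 15 Aqp5 UMIs, Aqp5 being the water channel of Bowman's and other exocrine glands. Both cells fell in the microvillar-like cluster, although neither had a UMI of the microvillar markers Coch, Foxi1, Cftr and Ascl3. The doublet score of the Gpx6 cell stood at percentile 77.9 of the library and that of the Bpifb9b cell at 98.5.

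The 2 cells shared no dominant BPI-fold gene. Bpifb6 and Bpifb4 lie 25.4 kb apart, and Bpifb5 and Bpifb9b 66.3 kb apart, all in the one cluster of chromosome 2. Bpifb6 had 1238 UMIs at P0, of which 94.5% were in the Gpx6 cell, and Bpifb5 had 275, of which 86.2% were in the Bpifb9b cell. Transcripts of Bpifb9b and Bpifb9a were 99.4% identical over 1658 bases, so reads may be split between them and Bpifb9b is uncertain. Bpifb9a had 4 UMIs, all at P0. At P21 Gpx6 reached 9 and 5 UMIs in 2 cells of the secretory cluster, which held 14 of its 28 UMIs, 163 CPM, against 2.19 CPM in mature-OSN-like cells.

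The odorant-binding lipocalins had no cell with more than 2 UMIs at any age. Obp2a, which in rodents is secreted by nasal glands, had 11 UMIs in the P0 library, 1 in P3, 1 in P7 and 135 in P21. The 135 UMIs lay in 123 cells, 111 of them with 1 UMI. Of 2909 genes with a total within 1.5-fold of 135 UMIs at P21, 38.2% also had no cell above 2, so this evenness was not rare. Of 2200 genes with a total like that of Bpifa1 at P21, 2194 had no cell above the 249 UMIs of its highest cell.

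At P21 Obp2a was found in every class with at least 20 cells. In the secretory cluster 2 UMIs gave 23.3 CPM (2.82 to 84.1). Its level was 22.1 CPM in mature-OSN-like cells (17.6 to 27.5), 12.7 in immature-OSN-like cells (5.48 to 24.9985), 19.9 in horizontal-basal-like cells (6.45 to 46.4), 16.2 in microvillar-like cells (3.35 to 47.4), 7.16 in precursor-like cells (1.95 to 18.3) and 58.4 in leukocyte-like cells (19.0 to 136). Ordered by level, the intervals of neighbouring classes overlapped, while those of precursor-like and leukocyte-like cells, the lowest and highest listed, did not. The ratio of the secretory cluster to mature-OSN-like cells was 1.05 (0.125 to 3.92). With each cell thinned to 1500 UMIs, 1 of 12 secretory-cluster cells and 1 of 72 horizontal-basal-like cells had an Obp2a UMI. So did 28 of 783 mature-OSN-like cells, 3.58% (2.39 to 5.13), against 8.88% before thinning, and 62 shallower cells were left out.

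Lcn11, a lipocalin encoded beside Obp2a, had the opposite ages. It had 92 UMIs in the P0 library, 5 in P3, 1 in P7 and 7 in P21, and the 92 lay in 89 cells. Of 2950 genes with a like total at P0, 67.5% also had no cell above 2 UMIs. At P0 the secretory cluster had 0 UMIs, which at 3 counts allows up to 17.0 CPM. The level at P0 was 13.1 CPM in mature-OSN-like cells (7.86 to 20.4), 7.73 in immature-OSN-like cells (4.23 to 13.0), 9.62 in precursor-like cells (4.80 to 17.2), 10.9 in horizontal-basal-like cells (2.24 to 31.8), 15.2 in stromal-like cells (6.12 to 31.4) and 26.2 in leukocyte-like cells (7.14 to 67.1). Ordered by level, the intervals of neighbouring classes overlapped here too, at low counts. The mature-OSN-like class was not even. Its cluster 6, of shallow cells (median 1950 UMIs over the 4 libraries), stood at 62.3 CPM (22.8 to 136) on 6 UMIs. Its clusters 0 and 5 stood at 11.4 (3.69 to 26.5) and 8.71 (3.76 to 17.2). No cell rich in Obp2a or Lcn11 was seen among the cells sampled. Obp1a, an odorant-binding gene of the X chromosome, had 1, 0, 0 and 8 UMIs, each in its own cell, and 0 UMIs allow up to 0.169 CPM at P3 and 0.347 CPM at P7.

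**Figure D4:**
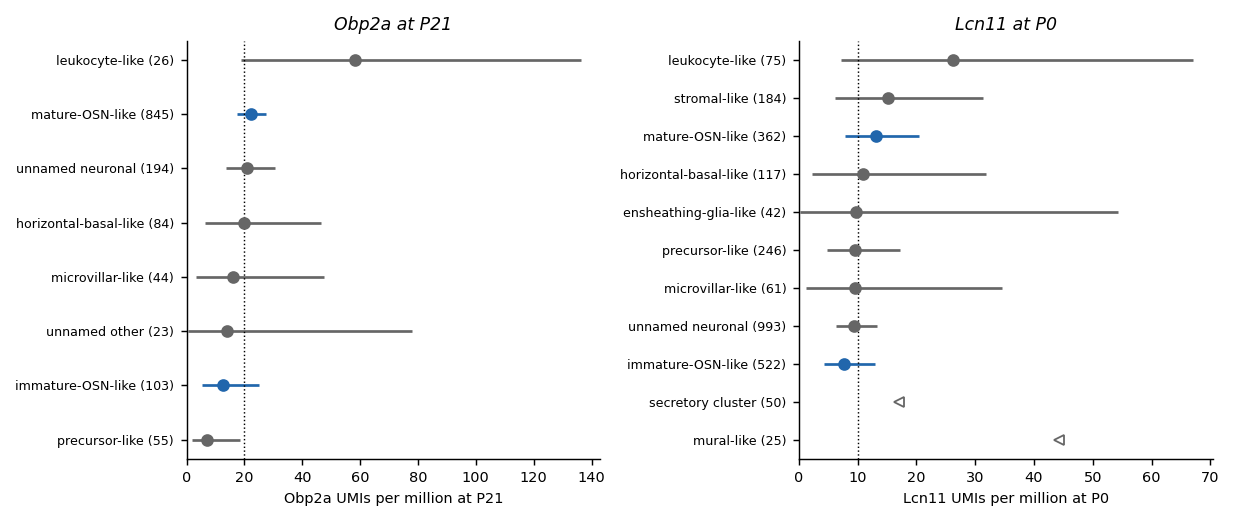
Level of Obp2a at P21 and of Lcn11 at P0 (CPM) in every class with at least 20 cells, the number of cells in brackets. Points are levels, bars exact Poisson 95% intervals, open triangles mark 0 UMIs at the limit of 3 counts, and the dotted line is the level over all cells. Apart from the classes at 0 UMIs, the intervals of all classes but the precursor-like cells for Obp2a include the level over all cells.

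The background in neurons was a different mixture of members from that in the secretory cluster. At P0 the 6932 member UMIs of the secretory cluster were 52.2% Bpifa1, 39.8% Reg3g, 7.54% Scgb1c1 (6.93 to 8.19) and 0 Lcn11. The 159 in mature-OSN-like cells were 36.5% Bpifa1 (29.0 to 44.5), 9.43% Reg3g (5.38 to 15.1), 35.2% Scgb1c1 (27.8 to 43.2) and 11.9% Lcn11 (7.35 to 18.0). Scgb1c1 and Lcn11 thus took larger shares in the neurons and Bpifa1 and Reg3g smaller ones. At P21 the 3567 member UMIs of the secretory cluster were 89.8% Scgb1c1 (88.7 to 90.7), 0.0561% Obp2a and 7.01% Bpifa1. The 241 in mature-OSN-like cells were 40.2% Scgb1c1 (34.0 to 46.7), 33.6% Obp2a (27.7 to 40.0) and 11.6% Bpifa1 (7.86 to 16.4). Scgb1c1 made 31.5% of the secretory cluster's member UMIs at P3 and 45.4% at P7, against 60.6% (42.1 to 77.1) of 33 and 64.9% (51.1 to 77.1) of 57 in mature-OSN-like cells. Its interval in neurons lay above that in the secretory cluster at P0, P3 and P7 and below it at P21. These intervals cover counting error only. A single cell held 3051 of the 6932 UMIs at P0, and another held 1260 of the 3567 at P21. At P7 a single cell held 2138 member UMIs, 1967 of Bpifa1, 170 of Reg3g and 0 of Scgb1c1. The other 61 secretory-cluster cells held 1781 of Scgb1c1, 3 of Bpifa1 and 3 of Reg3g, so the P7 order rested on that cell. Nor was the secretory cluster the only holder of Scgb1c1. Horizontal-basal-like cells held 27.6%, 89.1%, 48.8% and 33.8% of its UMIs by age, and microvillar-like cells 37.6% at P0.

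Obp2a and Scgb1c1 in neurons at P21 differed less with the depth of the cell than the neurons' own marker. Split at the median depth, the deeper mature-OSN-like cells of P21 had 2.59 times the UMIs of the shallower ones, and Omp, a marker of mature OSNs, was 2.56 times higher per cell (2.49 to 2.63). Obp2a had 11.1 UMIs per 100 cells in the deeper cells and 8.04 in the shallower, a ratio of 1.39 (0.872 to 2.22). Scgb1c1 had 14.0 and 8.98 UMIs per 100 cells, a ratio of 1.56 (1.02 to 2.40). At P0 the depth ratio was 2.05 and that of Omp 1.76 (1.67 to 1.86), while Bpifa1 gave 1.23 (0.711 to 2.15) and Lcn11 0.727 (0.254 to 1.99). The interval for Omp at P21 lay wholly above those for Obp2a and Scgb1c1, and at P0 the intervals of Omp, Bpifa1 and Lcn11 overlapped.

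Between ages, members changed in both directions. Over all cells of the library, 2 of the 8 measured members were at least 2-fold higher at P21 than at P0 and 5 were lower, against 9.13% higher and 9.59% lower of 14068 measured genes. The members' median log2 difference (10 CPM added) was -1.60, against -0.01 over all measured genes. Obp2a stood at 19.7 CPM at P21 (16.5 to 23.3), against 1.20 at P0 (0.597 to 2.14), 16.5-fold higher (8.92 to 33.8). Scgb1c1 stood at 850 CPM at P21 and 277 at P0, 3.06-fold higher (2.92 to 3.21), with 233 and 450 CPM at P3 and P7. Lcn11 fell to 1.02 CPM at P21, against 10.0 at P0, a ratio of 0.102 (0.0400 to 0.219).

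The other members that fell also had high single cells. Bpifa1 stood at 53.9 CPM at P21 and 445 at P0, a ratio of 0.121 (0.109 to 0.135), with 84.9 and 299.9 CPM at P3 and P7, and without the highest cells the ratio was 0.0713. Reg3g stood at 22.9 and 326 CPM, a ratio of 0.0705 (0.0596 to 0.0827), with 35.3 and 51.6 at P3 and P7, and without the highest cells 0.0574. Gpx6 stood at 4.09 and 133 CPM, a ratio of 0.0308 (0.0204 to 0.0448), and without the highest cell of each library the ratio was 0.690 and did not pass. Bpifb9b stood at 0.146 and 41.4 CPM, and 1 UMI at P21 against 381 at P0 gave a ratio of 0.0035 (0.0001 to 0.0198). Without the highest cells 0 UMIs at P21 stood against 41 at P0, and the call was kept. The 41 lay in 38 cells, 36 of them with 1 UMI, in the same library as the cell of 340. Bpifb1, at 1.90 and 3.15 CPM, did not pass. Against P3, 3 of 5 measured members were called higher at P21 and 0 lower, where 10.1% and 17.0% of genes were, and against P7 2 were higher and 2 lower, where 5.77% and 12.2% were. In these summed libraries fewer cells of a type and less RNA per cell cannot be told apart, and with 14 secretory-cluster cells at P21 no ratio between ages was formed within that cluster.

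**Figure D5:**
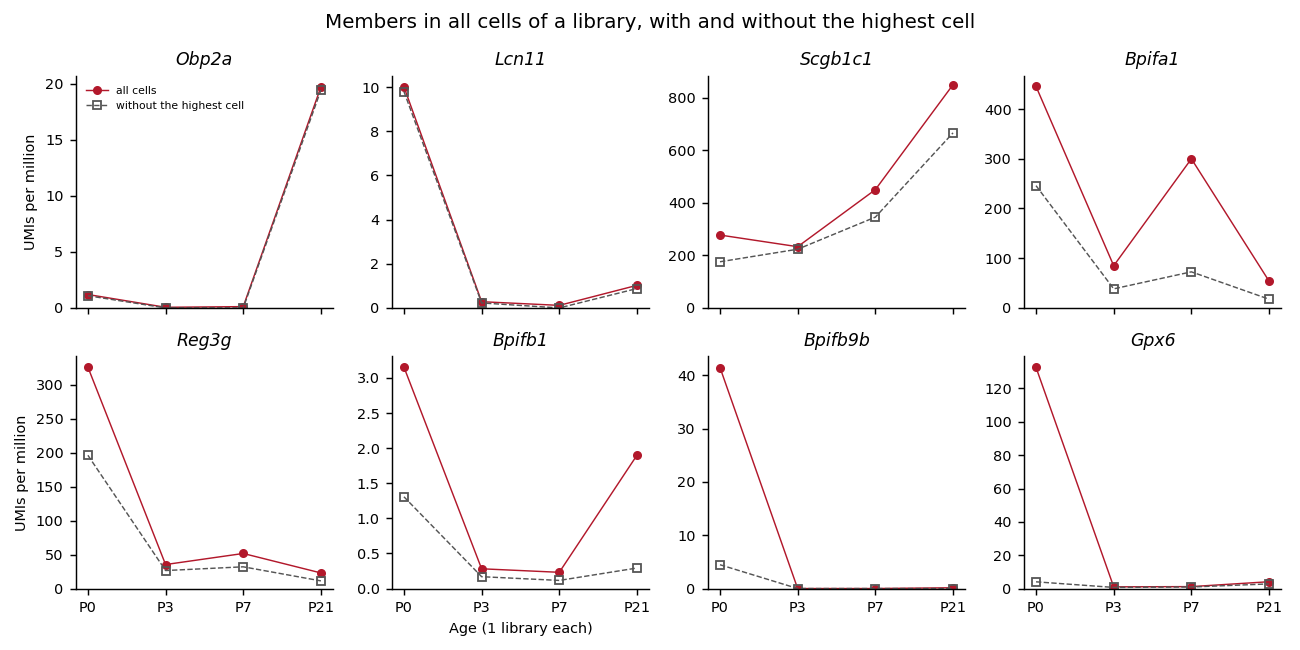
Level of 8 members over all cells of a library (CPM) at each age, with all cells and without the 1 cell that held most UMIs of the member. Without that cell Obp2a at P21 stands at 19.4 CPM and Lcn11 at P0 at 9.80, close to their full levels, whereas Gpx6 and Bpifb9b at P0 stand at 4.03 and 4.46.

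Within mature-OSN-like cells 3 members were measured between P21 and P0. Obp2a was higher at P21, with 81 UMIs against 1 at P0 and a ratio of 32.2 (5.62 to 1288), in a comparison where 8.05% of 9842 measured genes were higher. Bpifa1 was lower, at 7.65 CPM at P21 and 39.9 CPM at P0, a ratio of 0.192 (0.118 to 0.306), where 3.74% of genes were lower. Scgb1c1, at 26.5 and 38.5 CPM, gave 0.689 (0.491 to 0.975) and did not pass the 2-fold limit. The direction of Scgb1c1 in neurons was thus not that over all cells of the library. Against P3 2 members were called higher and 0 lower (5.84% and 4.45% of genes), and against P7 1 higher and 0 lower (4.62% and 3.95%). Against P3, Scgb1c1 in mature-OSN-like cells was 2.38-fold higher at P21 and passed.

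The wider families, listed with earlier results of these data known, also held genes spread thinly over cells and genes found mostly in 1 cell. Their calls between P21 and P0 over all cells stand beside the 9.13% higher and 9.59% lower of all measured genes. Of 7 further lipocalins found, 3 were measured between P21 and P0, 2 higher and 1 lower. Obp2b, which encodes a close relative of Obp2a and lies 33.7 kb from it, had 1, 0, 1 and 59 UMIs by age (P0 to P21), in 56 cells at P21 with at most 2 in any. Lcn3 had 4.38 CPM at P21 and 0.870 at P0, also with no cell above 1 UMI, and Obp1b had 10 UMIs at P21 in 10 cells. Lcn2, an iron-sequestering defence lipocalin, was lower at 3.36 CPM at P21 and 7.51 at P0, and its level was highest in leukocyte-like cells. Transcripts of Obp2a and Obp2b were 76.5% identical over 591 aligned bases.

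Among 9 other BPI-fold genes 4 were measured, none higher and 3 lower at P21, namely Bpifb6, Bpifb4 and Bpifb5, the genes of the 2 P0 cells. Bpifb4 kept 14.3 CPM at P21, against 101 at P0. Among 6 secretoglobins Scgb3a1 was higher, at 16.8 CPM at P21 and 1.63 at P0, with 107 of its 115 UMIs at P21 in the highest Bpifa1 cell. Scgb3a2 was lower, with 0 UMIs at P21 and 28 at P0, all 28 in 1 cell. Of 17 defence and antioxidant genes 10 were measured, 2 higher (Wfdc18 and Ltf) and 2 lower (Lyz2 and Slpi). Wfdc18, a protease-inhibitor-like secreted protein, stood at 569 CPM at P21 and 140 at P0, 4.05-fold higher (3.80 to 4.32), and 1727 of its 3894 UMIs at P21 were in 1 cell. Of 10 xenobiotic-metabolism genes 9 were measured, 2 higher (Cyp1a2 and Gstm2) and none lower, while the 4 most abundant, Cbr2, Gsta4, Cyp2g1 and Cyp2a5, gave ratios of 1.09, 0.655, 0.840 and 0.719.

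The genes whose levels followed the members most closely were sought over 72 units of a cluster and a library with at least 20 cells, which share libraries and depth. For Scgb1c1 they were Aqp5 (Pearson r = 0.89), Fmo2 (0.88) and Ephx1 (0.88). Bpifa1 followed Reg3g (0.88), Serpinb11 (0.85) and Olfm5 (0.84), and Reg3g followed Serpinb11 (0.91), Bpifa1 and Tff2 (0.86). Gpx6 followed Bpifb6 (0.94) and Ces1a (0.93), and Bpifb9b followed Bpifb5 (0.91) and Bpifb6 (0.89), units in which single cells held most UMIs. Obp2a followed Obp2b (0.87), Gm10320 (0.82) and Gm8420 (0.62), and Lcn11 followed Dynlt1a (0.68), Gm6619 (0.66) and Gm15823 (0.65). The 3 remaining members had fewer than 50 UMIs and are given no such gene.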

How the data were processed

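Each file deposited by the authors holds raw UMI counts, a gene by cell matrix without normalization. Cell Ranger 2.1.1, Seurat and mm10 are named in the submitters' processing notes, and no source used here says whether counting used strand. The members and lists were chosen with earlier results of these data known. Cells with at least 500 genes, at most 10% mitochondrial and at most 10% haemoglobin UMIs were kept, which removed 12 cells of P0, 0 of P3, 2 of P7 and 3 of P21. Scanpy 1.11.5 clustered all cells without batch correction, without the members and family lists, by the Leiden method (2000 variable genes, 30 components, 15 neighbours, resolution 1.0). A class name needed a marker score of at least 1 and a lead of 1. Scrublet marked 66 of 9109 cells (0.725%), and none was removed. For a ratio of CPM the 95% interval is the exact conditional binomial one. A call needed 2-fold, an interval excluding 1 and 20 UMIs in either group. The rule was tested on simulated Poisson totals of whole libraries. These hold no cells, so the test cannot show how the rule treats members held mostly by single cells. Shares carry exact binomial intervals. All 10 members are named, other families by their 4 members with most UMIs or by their calls, after values were seen. Of 49671 symbols 47313 (95.3%) matched GENCODE vM21. The limit for 0 is 3 counts. Intervals cover counting error only. Alternatives changed the cell filter, resolution, clustering genes, doublets, scaling, UMI minimum, earlier age, neuron definition, single cells and shared barcodes.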

Additional observations from a re-analysis of the deposited data

How the results depend on the processing

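No paired analysis was possible because each age has 1 library and the labels number no replicates, so libraries of different ages could not be paired, while cell classes were compared within each library. Values are counts unless named as ratios. The number of member and library pairs with the highest level in the secretory cluster was 18 of 40, and 2 with members and family genes in the clustering. Under that setting the pairs called higher in the secretory cluster numbered 4 in place of 13, those with over 50% of UMIs there 0 in place of 8, and the ratio of secretory to mature-OSN-like cells turned to 0.4904 for Bpifa1 and 0.9808 for Reg3g at P0 and to 0 for both at P3, the cells concerned having joined a basal cluster. Without the highest cell of each member, a setting chosen after seeing the data, those pairs numbered 8 and 2, and without the cell filter the second was 14. Members called between P21 and P0 over all cells numbered 7, against 3 with P3 and 4 with P7 in place of P0 (lower: 5, against 0 and 2), and all genes called 2633, against 4253 with P3 and 1720 with at least 50 UMIs. Against P3 and P7, the ratio of Lcn11 turned to 3.635 and 8.847 and that of Gpx6 to 4.039 and 3.539. In mature-OSN-like cells members called numbered 2, against 4 without the cell filter, 4 with at least 5 UMIs and 1 with P7 (higher: 1, against 2 with P3; lower: 1, against 3 without the cell filter, 3 with at least 5 UMIs and 0 with P3 and with P7), and all genes called 1160, against 693 with at least 50 UMIs. There the ratios against P3 turned to 2.38 for Scgb1c1 and 1.249 for Bpifa1, and against P7 to 1.916 for Bpifa1. The cause of these shifts was not tested, except where cells changed cluster. Median-of-ratios scaling, resolution 2.0, doublet removal and leaving out shared barcodes moved none of these counts by over 1.5 times. Obp1a, Bpifb1 and Muc5b had 9, 49 and 33 UMIs in all, few for any comparison.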

Other observations

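Related genes outside the 10 members had their own places. Of 8 further mucins 6 were measured between P21 and P0 over all cells, 1 higher (Muc13) and 1 lower (Muc5ac, with 2 UMIs at P21 and 30 at P0, 14 of them in 1 cell), beside 9.13% higher and 9.59% lower of all measured genes. Muc13, a membrane mucin, stood at 1.75 CPM in the secretory cluster, against 14.7 CPM in mature-OSN-like cells, its highest class. Over all cells it stood at 8.62 CPM at P21 and 3.37 at P0, 2.56-fold higher (1.63 to 4.09). Within mature-OSN-like cells it was the 1 mucin measured, with a log2 difference of -0.03 (10 CPM added), called neither way. Mature-OSN-like cells were 59.8% of cells at P21 and 13.5% at P0, and the part of that share was not tested. Muc2, a gel-forming mucin, and Muc16, a membrane mucin, were highest in the secretory cluster, at 218 and 90.9 CPM over the 4 libraries, against 0.462 and 0.231 CPM in mature-OSN-like cells. Muc1 and Muc20, both membrane mucins, were highest in microvillar-like cells, at 113 and 93.7 CPM. Lyz2, a lysozyme, was highest in leukocyte-like cells, at 5010 CPM, and Wfdc2 in microvillar-like cells, at 1805 CPM.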
